A study of Mus musculus with 6 samples.

Results

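The genes described here are 10 mitochondrial chaperones and proteases, the effectors of the mitochondrial unfolded protein response, read from RNA-seq of mouse liver tumors. They were chosen by symbol (Hspd1, Hspe1, Hspa9, Dnaja3, Lonp1, Clpp, Clpx, Yme1l1, Afg3l2 and Htra2), and all 10 were found among the 30236 genes of the table. There were 3 tumors of WT mice and 3 of mice with the genotype Top1mt -/- (KO below), all males on the C57BL/6 strain and bred as littermates from heterozygous parents. Mice of both genotypes had received diethylnitrosamine, a liver carcinogen, on day 14 after birth and carbon tetrachloride, which injures the liver, for 14 weeks from week 8, and tumors were taken at 22 weeks of age. Top1mt encodes the topoisomerase that relaxes mitochondrial DNA. The KO mice carried the deletion in the germ line, so each cell type in a tumor shared it. Values are the authors' log2 expression values, in which a difference of 1 is a 2-fold change. The depth of the libraries is unknown, and no source states whether each tumor came from a different mouse, so p-values measure the spread between these samples.

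Most mitochondrial proteins are made in the cytosol and threaded unfolded into the matrix, where the Hsp70 chaperone HSPA9 pulls them in and, with its cochaperone DNAJA3, helps them fold, and where the barrel formed by HSPD1 (Hsp60) and its lid HSPE1 (Hsp10) completes the folding. Proteins that fail to fold are degraded by the AAA+ proteases LONP1 and CLPXP in the matrix, by AFG3L2 and YME1L1 on either face of the inner membrane, and by HTRA2 in the intermembrane space. When mitochondrial proteins misfold or respiratory chain subunits are unbalanced, cells are known to raise the transcription of genes of this kind, a program named the mitochondrial unfolded protein response.

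None of the 10 genes passed limma's test between the genotypes. After adjustment over the 22677 genes tested, 0 of 10 passed an adjusted p of 0.05, where the share called among all genes was 0%. At an unadjusted p under 0.05 the count was also 0 of 10, against 4.34% of all genes. Without KO replicate 1 it was 3 of 10 (Hspa9, Lonp1 and Clpx), against 5.97% of all genes, and it was 0 with any other library left out. The 3 KO libraries lay wholly above or below the 3 WT libraries in 0 of 10 genes, against 8.28% of all genes (3.95% higher and 4.33% lower in KO). By sign alone 6 genes were higher and 4 lower in KO, where 47.7% of all genes were higher and 52.3% lower. The median log2 fold change was 0.06 over the 10 genes and -0.015 over all genes tested. With a library left out the first of these ran from -0.020 without WT replicate 3 to 0.11 without WT replicate 2. In 9 of 10 the 95% interval of the log2 fold change lay within 1 of zero in both directions, and the exception was Clpx. The same held for 49.7% of all genes tested, but each of the 10 had a higher mean than at least 58.8% of those. Smaller changes are not excluded, as the intervals reached 0.71 for Hspa9 and -0.82 for Htra2.

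The targeted gene was examined first. For Top1mt, WT replicates 1 to 3 read 7.71, 6.00 and 8.01 on the log2 scale, and KO replicates 1 to 3 read 5.58, 6.41 and 6.32. The library labelled WT replicate 2 lay below KO replicates 2 and 3, against its label, so every direction given here rests on the labels. Its log2 fold change was -1.13 (standard error 0.52; limma's adjusted p = 0.999; exact permutation p = 0.3, two-sided, with 0.1 the smallest possible for 3 against 3), ranging from -1.76 without WT replicate 2 to -0.75 without WT replicate 3. All 6 libraries were rich in hepatocyte transcripts, with a summed marker level of 20.7 to 21.5 on the log2 scale and Alb highest at 8.51% to 12.03% of all summed linear values. KO replicate 1 stood apart by Gm42418, which held 17.7% of its summed values and 0.0199% to 0.387% in the other 5 libraries. Its median log2 value of 5.67 lay within the range of the others (5.65 to 5.83). Markers of other cells also varied. Lower in KO by sign were 5 of 7 bile duct, 4 of 5 erythroid and 7 of 8 stellate cell and fibroblast markers. The number was 3 of 8 for macrophage and 1 of 6 for endothelial markers, where 52.3% of all genes were lower. The summed stellate cell and fibroblast level ran from 12.1 in KO replicate 1 to 14.5 in WT replicate 1. That level sums linear values, so the collagen genes Col3a1, Col1a2 and Col1a1, its largest transcripts, weigh most in it. Pdgfrb and Des had the same lowest and highest libraries as the sum, while Rgs5, Acta2 and Lrat did not. In such bulk tumors fewer cells of a type and less RNA per cell cannot be told apart, and the part of these cells in the values below was not tested.

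Hspd1 and Hspe1, whose products work as one machine, are neighbours on mouse chromosome 1 and are read away from each other. In GENCODE M21 (GRCm38) Hspd1 spans chr1:55077835-55088243 on the minus strand with 12 exons, and Hspe1 spans chr1:55088132-55091307 on the plus strand with 4 exons. Their exons share 112 bases on opposite strands, and whether the authors' counting used strand is not given in the sources used here. The stretch between their start sites is shown because it holds the one cluster of heat shock elements found in the promoter windows of these genes. It is the plus strand of chr1:55088053-55088082 (RefSeq promoter table, GRCm38.p6), and the capitals mark 3 overlapping matches, 2 to TTCNNGAA and 1 to GAANNTTC.
Hspd1-Hspe1: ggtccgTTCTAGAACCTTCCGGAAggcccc
The 18 bases in capitals begin 35 bases beyond the start of the Hspd1 transcript model used here and end 56 bases before that of Hspe1. They also lie in the untranslated first exon of a longer Hspd1 transcript of that annotation. Of 32851 promoter windows of 300 bases, 0.256% held 3 or more such matches, 8.52% held TTCNNGAA and 7.86% held GAANNTTC.

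Clpx is the gene of the set with the largest difference and the widest spread. It lies at chr9:65294260-65330658 on the plus strand, with 14 exons. The 250 bases before its start, chr9:65294010-65294259 on the plus strand, are given with 2 matches in capitals, both read on the opposite strand. The first is a CCAAT box and the second a match to the letters GCGCATGC, part of the site of NRF1, a factor known for its binding to promoters of respiratory chain genes.
Clpx: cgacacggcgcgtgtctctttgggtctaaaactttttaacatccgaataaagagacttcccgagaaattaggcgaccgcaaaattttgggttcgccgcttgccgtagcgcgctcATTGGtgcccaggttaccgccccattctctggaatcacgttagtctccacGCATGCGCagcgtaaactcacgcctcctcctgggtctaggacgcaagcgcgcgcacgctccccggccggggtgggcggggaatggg
The NRF1 site was found in 2.71% and the CCAAT box in 37.4% of all windows, searched on both strands. The table held windows for 7 of the 10 genes. The positions that follow are counted from the RefSeq start sites, which are not the ends of the GENCODE spans given for these genes. A CCAAT box began at base -134 in the windows of both Yme1l1 (chr2:23156371-23156375) and Dnaja3 (chr16:4683936-4683940), in both cases inside the GENCODE span. Lonp1 had an E-box (CACGTG, 7.15% of windows) at base -36, and Clpp a TTCNNGAA match at base 33 (chr17:56990297-56990304), just before its GENCODE span. The longer Hspd1 transcript had an E-box at base -80. TGATGNAA, the C/EBP-ATF response element bound by ATF4 and CHOP (3.97% of windows), and TGACGTCA, the cyclic AMP response element (1.79%), were found in none of the 8 windows of these genes. A match is a description of letters, and none says that a factor bound there or did not.

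Neither chaperonin gene passed the test between the genotypes, and the tumor with the least Hspd1 had the most Hspe1. Hspd1 read 12.23, 12.03 and 11.95 across WT replicates 1 to 3, against 11.85, 12.10 and 12.06 across KO replicates 1 to 3. The highest value was a WT and the lowest a KO library, and the groups overlapped. Between the genotypes the log2 fold change was -0.07 (standard error 0.15, 95% interval -0.42 to 0.29; exact permutation test, p = 0.6). It became 0.015 without WT replicate 1 and 0.012 without KO replicate 1. Hspe1 read 10.44, 10.26 and 9.99 in WT against 10.72, 9.85 and 9.90 in KO. Here KO replicate 1 was the highest of all 6, as it was for 18.8% of all genes tested, and the groups overlapped. The transcript model of Hspe1 has 774 bases and that of Hspd1 2423, and the part of length in KO replicate 1 was not tested. The log2 fold change was -0.07 (standard error 0.25, 95% interval -0.65 to 0.50; exact permutation test, p = 0.8), and -0.36 without KO replicate 1. It was above zero without WT replicate 1, KO replicate 2 or KO replicate 3, at most 0.08.

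Both genes of the Hsp70 arm lay above the WT range in 2 of the 3 KO tumors and below it in the other. Hspa9, the matrix Hsp70 that also drives import (chromosome 18), read 12.73, 12.59 and 12.56 across WT replicates 1 to 3, against 12.50, 12.95 and 13.14 across KO replicates 1 to 3. KO replicates 2 and 3 lay above every WT library, while KO replicate 1 lay below every one, so the groups overlapped. Its log2 fold change was 0.24 (standard error 0.20, 95% interval -0.23 to 0.71; exact permutation test, p = 0.4), 0.42 without KO replicate 1 and 0.10 without KO replicate 3. Dnaja3, its J-domain partner (chr16:4639989-4707695), read 10.11, 10.17 and 10.003 in WT against 9.99, 10.30 and 10.43 in KO. The libraries fell in the same pattern, with KO replicate 1 at the bottom and KO replicates 2 and 3 at the top. KO replicate 1, at 9.994, lay only just below WT replicate 3. Between the genotypes the log2 fold change was 0.15 (standard error 0.15, 95% interval -0.20 to 0.50; exact permutation test, p = 0.4), 0.28 without KO replicate 1 and 0.06 without KO replicate 3.

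**Figure D1:**
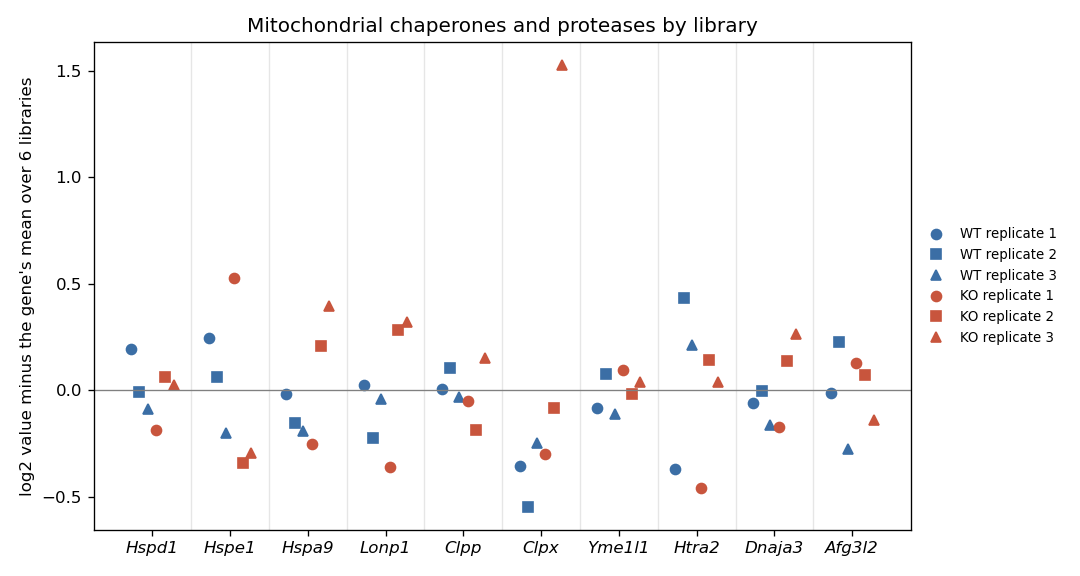
Each gene's log2 value in each library minus that gene's mean over the 6 libraries, with WT libraries in blue, KO libraries in red and replicates 1, 2 and 3 as circles, squares and triangles. Blue and red points overlap in all 10 genes, and the one point far from the rest is Clpx in KO replicate 3.

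Among the matrix proteases, Clpx stood out through a single tumor. Lonp1, the main protease for oxidized matrix proteins (chr17:56614297-56626887), read 11.02, 10.78 and 10.96 across WT replicates 1 to 3, against 10.64, 11.29 and 11.32 across KO replicates 1 to 3. As for Hspa9, KO replicate 1 was lowest and KO replicates 2 and 3 lay above every WT library. The log2 fold change was 0.16 (standard error 0.20, 95% interval -0.31 to 0.63; exact permutation test, p = 0.6), 0.38 without KO replicate 1 and 0.04 without KO replicate 3. Clpp, the peptidase chamber of CLPXP (chr17:56990305-56996188), read 8.72, 8.82 and 8.68 in WT against 8.67, 8.53 and 8.87 in KO. Its highest and lowest values were both KO libraries. Its log2 fold change was -0.05 (standard error 0.14, 95% interval -0.39 to 0.28; exact permutation test, p = 0.6), and the sign turned when libraries were centred on their medians (0.0017) and without KO replicate 2 (0.026). Clpx, the unfoldase that feeds CLPP and also acts on the heme enzyme ALAS1, read 9.95, 9.76 and 10.06 in WT against 10.01, 10.23 and 11.83 in KO. KO replicate 3 was far above the other 5 libraries, and KO replicate 1 lay within the WT range. Between the genotypes the log2 fold change was 0.77 (standard error 0.43, 95% interval -0.23 to 1.76; exact permutation test, p = 0.2). It was the largest of the 10 genes, and its unadjusted p of 0.113 from limma was the smallest. Without KO replicate 3 it was 0.19 and without KO replicate 1 it was 1.11.

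The proteases of the inner membrane and the intermembrane space showed small log2 fold changes, with a wider interval for Htra2. Yme1l1, which cleaves OPA1 and other proteins on the outer face of the inner membrane (chr2:23156369-23199260), read 11.22, 11.37 and 11.18 across WT replicates 1 to 3, against 11.39, 11.28 and 11.33 across KO replicates 1 to 3. It varied least of the 10 genes, over 0.21 from the lowest to the highest library. The log2 fold change was 0.08 (standard error 0.13, 95% interval -0.22 to 0.38; exact permutation test, p = 0.3). Afg3l2, the matrix-facing m-AAA subunit (chromosome 18), read 10.25, 10.49 and 9.99 in WT against 10.39, 10.33 and 10.12 in KO, so that the WT libraries held both the highest and the lowest value. Its log2 fold change was 0.04 (standard error 0.16, 95% interval -0.34 to 0.42; exact permutation test, p = 0.9), with -0.087 without WT replicate 3 and -0.015 without KO replicate 1. Htra2, a serine protease of the intermembrane space (chr6:83051266-83055273), read 6.59, 7.39 and 7.17 in WT against 6.50, 7.10 and 6.996 in KO. Replicate 1 of each genotype was low, and the groups overlapped. Between the genotypes the log2 fold change was -0.18 (standard error 0.28, 95% interval -0.82 to 0.46; exact permutation test, p = 0.5), -0.41 without WT replicate 1 and -0.0016 without KO replicate 1. Exons of Htra2 share 535 bases with Loxl3 and 51 with Aup1 on the opposite strand.

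**Figure D2:**
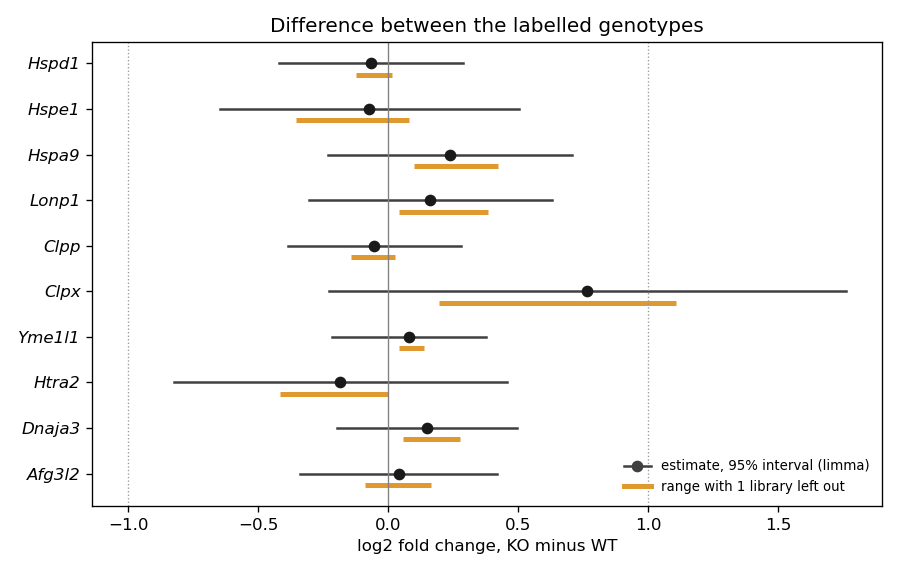
The log2 fold change (KO minus WT) of each gene with limma's 95% interval (black) and the range of the estimate when each library was left out in turn (orange); dotted lines mark a log2 fold change of 1 in either direction. Every black interval crosses zero, and Clpx alone reaches past 1.

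The pattern by tumor was then described for the set. KO replicate 1 was the lowest library for 5 of 10 genes (Hspd1, Hspa9, Lonp1, Htra2 and Dnaja3), where 17.2% of all genes tested were lowest there. KO replicate 3 was the highest for 5 of 10 (Hspa9, Lonp1, Clpp, Clpx and Dnaja3), where 16.1% of all genes were highest there. The mean of the 10 centred values read -0.04, -0.0033 and -0.11 across WT replicates 1 to 3, against -0.10, 0.03 and 0.23 across KO replicates 1 to 3. Clpx alone stood at 1.53 in KO replicate 3, where the median of the 10 was 0.10, and the median in KO replicate 1 was -0.18. The range from the lowest to the highest library ran from 0.21 in Yme1l1 to 2.08 in Clpx. For 6 of 10 genes it was under 0.65, the median for genes at or above the median level. Without KO replicate 1, a fit added after the values had been seen, the genotypes did not overlap in 5 of 10 genes, with Hspa9, Dnaja3, Lonp1 and Clpx higher and Hspe1 lower in KO, against 21.5% of all genes in that comparison. With any other library left out, 0 or 1 of the 10 did not overlap, against 15.9% to 18.3% of all genes. KO replicate 1 is also the library with the high share of Gm42418 and the lowest stellate cell and fibroblast level, and the part of either was not tested.

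Genes whose products work together or serve related proteases were then compared within each library, where the scaling of the library cancels. A difference between libraries that depends on the transcript, such as on its length, does not cancel and was not tested. Lonp1 and Clpp belong to separate matrix proteases, and Afg3l2 and Yme1l1 to proteases on opposite faces of the inner membrane. In all, 6 such pairs were tested with exact two-sided permutation tests and adjusted over the 6 pairs. The difference Hspd1 minus Hspe1 read 1.79, 1.77 and 1.96 across WT replicates 1 to 3, against 1.13, 2.25 and 2.17 across KO replicates 1 to 3. KO replicate 1 lay below and KO replicates 2 and 3 above all WT libraries, and the change between genotypes was 0.0071 (exact p = 1, adjusted p = 1). The difference Clpx minus Clpp read 1.23, 0.94 and 1.38 in WT against 1.34, 1.69 and 2.97 in KO. The change was 0.82 (exact p = 0.2, adjusted p = 0.75), and 0.34 without KO replicate 3. The difference Hspa9 minus Dnaja3 stayed between 2.43 and 2.71 in the 6 libraries, with a change of 0.09 (exact p = 0.4, adjusted p = 0.75) that ran from 0.034 to 0.15 with a library left out. Lonp1 minus Clpp changed by 0.22 (exact p = 0.4, adjusted p = 0.75), with 0.035 without KO replicate 2 and 0.43 without KO replicate 1. Afg3l2 minus Yme1l1 changed by -0.04 (exact p = 0.7, adjusted p = 0.84). Afg3l2 minus Spg7, the other m-AAA subunit, changed by 0.18 (exact p = 0.5, adjusted p = 0.75). The groups overlapped in all 6 pairs.

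**Figure D3:**
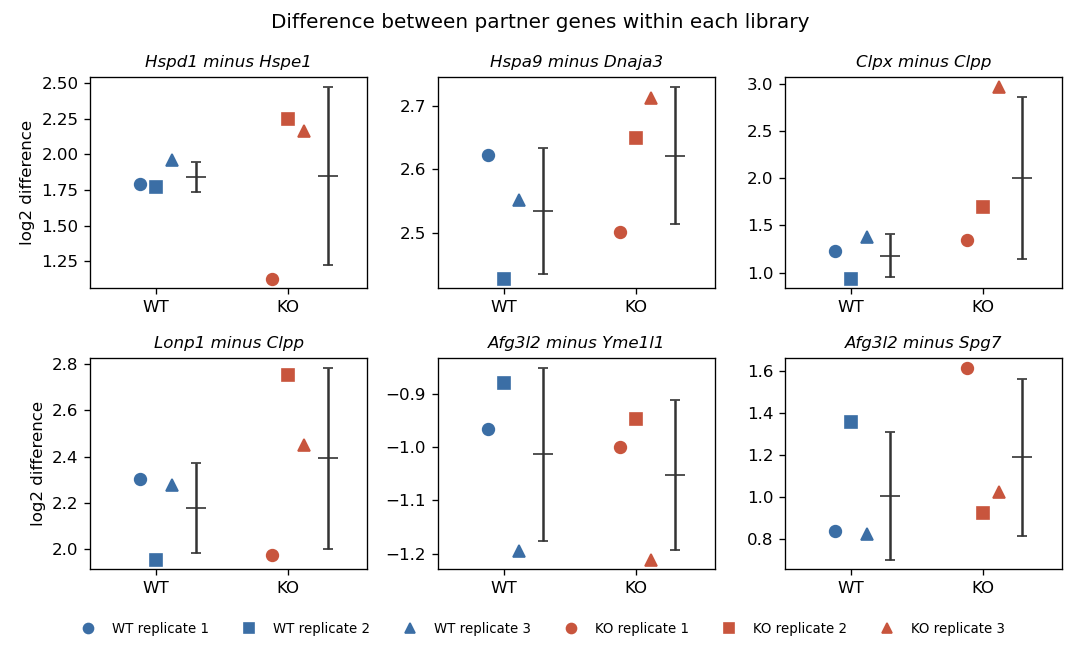
The log2 difference between the paired genes within each library, WT in blue and KO in red, with the mean and SD of each genotype as a bar (n = 3). The vertical scales differ between panels and do not start at 0. KO replicate 1 lies apart for Hspd1 minus Hspe1 at 1.13, and KO replicate 3 for Clpx minus Clpp at 2.97.

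Across the 6 libraries Hspa9 and Dnaja3 varied together, and no such relation was detected for Hspd1 and Hspe1. For Hspa9 and Dnaja3 Pearson's r was 0.953 (exact permutation p = 0.00694, adjusted over the 6 pairs p = 0.0417) and Spearman's rho was 0.943 (exact permutation p = 0.0167, adjusted p = 0.1). Taken as deviations from the genotype means, r was 0.938. Without KO replicates 2 and 3, the libraries farthest from the median, r was 0.605, so the relation rests in large part on those tumors. Lonp1, outside this pair, also had KO replicate 1 lowest and KO replicates 2 and 3 highest. Unlike a difference within a library, a correlation keeps the scaling of the libraries. For Hspd1 and Hspe1 r was -0.289 (exact permutation p = 0.563, adjusted p = 0.844), rho was -0.371 (exact permutation p = 0.497, adjusted p = 0.79), and r was -0.406 without WT replicate 1 and KO replicate 1. For Afg3l2 and Yme1l1 r was 0.71 (exact permutation p = 0.121, adjusted p = 0.362), rho was 0.771 (exact permutation p = 0.103, adjusted p = 0.308), and r fell to 0.252 without WT replicates 2 and 3. The other 3 pairs had r from -0.159 to 0.462 and adjusted p of 0.79 or more by exact permutation.

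Per kilobase of transcript the chaperones stood above the proteases, apart from Dnaja3. This order takes the values as not already scaled by length, which no source used here states. It also takes the length of a single transcript model for each gene. On the scale of the mean log2 value minus the log2 of the length in kilobases, Hspa9 was highest at 11.1, followed by Hspd1 at 10.8, Hspe1 at 10.6 and Lonp1 at 9.44. Then came Yme1l1 at 9.06, Clpx at 8.78, Dnaja3 at 8.76, Clpp at 8.74, Afg3l2 at 8.63 and Htra2 at 6.17. Hspd1 and Hspe1 did not differ beyond the spread between libraries, nor did any neighbours in the run from Yme1l1 to Afg3l2. The step from Hspe1 to Lonp1 (1.12) and that from Afg3l2 to Htra2 (2.46) were seen in 6 of 6 libraries. Htra2, the lowest, still had a higher mean than 58.8% of the genes tested. Retroposed copies of Hspd1, Hspe1 and Hspa9 in the table reached at most 5.96, far below their parent genes, and how reads shared with them were split is not known.

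The wider folding and degradation machinery was examined in 3 further lists, and 0 of their genes passed an adjusted p of 0.05 by limma or an unadjusted p under 0.05. Of 18 chaperone partners, such as nucleotide exchange factors and assembly factors, 13 were higher and 5 lower in KO by sign, with a median log2 fold change of 0.02. Trap1, the mitochondrial Hsp90, had 0.08, and the extremes were 0.44 for Hscb, the cochaperone of iron-sulfur cluster transfer, and -0.18 for Atpaf2, an ATP synthase assembly factor. Of 15 other mitochondrial proteases 7 were higher and 8 lower, with a median of -0.0032. Immp1l, an inner membrane peptidase, had the highest at 0.37 and Atp23 the lowest at -0.26. Oma1, the stress-activated protease that cleaves OPA1 and DELE1, read 7.90, 7.85 and 7.90 across WT replicates 1 to 3, against 7.64, 7.71 and 7.78 across KO replicates 1 to 3. Each KO library was below each WT library, with a log2 fold change of -0.17 (standard error 0.15; limma's adjusted p = 0.999), while 4.33% of all genes tested lay wholly lower in KO. Of 5 scaffold genes of the inner membrane proteases 4 were higher, with a median of 0.09, from -0.09 for Phb2, a prohibitin, to 0.20 for Ghitm, a partner of the m-AAA protease.

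The regulators of the response, among them transcription factors and kinases, were mixed. Of 14 regulators 9 were higher and 5 lower in KO, 0 passed the adjusted threshold, and the median log2 fold change was 0.05. Ddit3, which encodes CHOP, read 7.94, 7.73 and 7.44 across WT replicates 1 to 3, against 9.13, 7.79 and 9.48 across KO replicates 1 to 3. KO replicates 1 and 3 were well above WT while KO replicate 2 lay in the WT range, and the log2 fold change was 1.10 (standard error 0.40; limma's unadjusted p = 0.0262, adjusted p = 0.999). Atf5, the factor most like the worm regulator ATFS-1, read 10.40, 11.19 and 10.05 in WT against 10.93, 10.98 and 12.20 in KO. Its highest value was in KO replicate 3 and the groups overlapped, and the log2 fold change was 0.82 (standard error 0.40; limma's adjusted p = 0.999). Cebpb, a partner of CHOP, read 9.37, 9.50 and 9.14 in WT against 8.72, 8.58 and 8.17 in KO. All KO libraries were below all WT libraries, as in 4.33% of all genes tested. The log2 fold change was -0.84 (standard error 0.18; limma's unadjusted p = 0.00188, adjusted p = 0.938). Atf4 had a log2 fold change of 0.29, Hsf1 0.01, Ssbp1, the mitochondrial partner of HSF1, -0.03, and Dele1, listed under an older symbol, 0.08.

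The cytosolic heat shock chaperones, which HSF1 controls, were lower by sign in KO in 17 of 19 genes, with a median log2 fold change of -0.25, and 0 passed the adjusted threshold by limma. Without adjustment 2 genes were lower at p under 0.05, against 2.56% of all genes. In either direction the number was 5 without WT replicate 3 and 4 without KO replicate 2. It was 5 with the replicate number as a block. Of all 22677 genes tested, 925, 1020 and 912 had such a p in these fits, against 985 in the main fit. The list's number was 1 without WT replicate 1, WT replicate 2 or KO replicate 3, where 924, 1048 and 859 of all genes did. It was also 1 without limma's trend and with libraries centred on their medians, where 1047 and 978 of all genes did. Of the 8 related pathway lists this one varied most between libraries. Its mean centred value read 0.61, 0.13 and -0.21 across WT replicates 1 to 3, against -0.07, -0.02 and -0.44 across KO replicates 1 to 3, so that WT replicate 1 was high, and without it the median was -0.0085. Hspa1b, the inducible Hsp70, read 9.58, 8.25 and 7.25 in WT against 7.19, 8.02 and 5.98 in KO, with overlapping groups and a log2 fold change of -1.30 (standard error 0.66; limma's adjusted p = 0.999). Hspa4 was the highest of the list at 0.05. Dnaja1, Dnaja2, Hspb8 and Cryab did not overlap between the genotypes, 4 of 19 genes, all lower in KO, against 4.33% of all genes, and they were named after their values were seen.

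**Figure D4:**
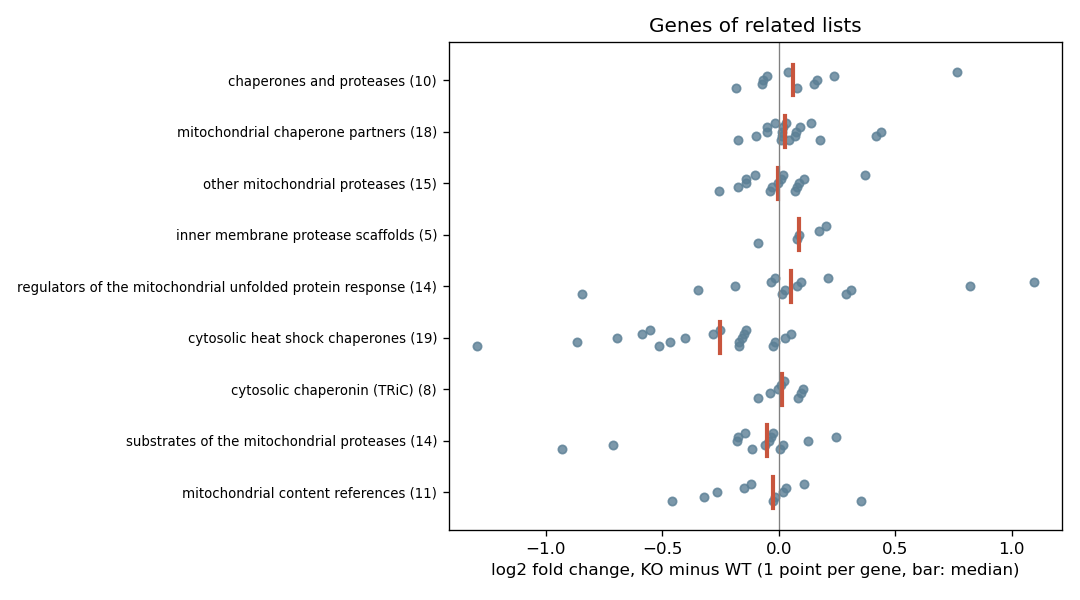
The log2 fold change (KO minus WT) of each gene in the 10 chaperones and proteases and in 8 related lists, 1 point per gene, with the median of each list as a red bar and the number of genes in brackets; the vertical offset within a row only separates points. The medians lie between -0.25 for the cytosolic heat shock chaperones and 0.09 for the scaffolds.

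The 10 genes were also set beside the summed levels of 9 lists of cell type and cell cycle markers, 90 relations in all, after their values had been seen. None passed when adjusted over the 90, where the smallest adjusted p by exact permutation was 0.208 for Pearson's r and 0.125 for Spearman's rho, so the values are given as a description. In such sums the largest transcripts weigh most, which are collagen genes among the stellate cell and fibroblast markers and Alb among the hepatocyte markers. Hspd1 was ordered like the sum of the stellate cell and fibroblast markers. That sum was 14.5, 13.2 and 12.9 in WT replicates 1 to 3, and 12.1, 14.2 and 13.2 in KO replicates 1 to 3. Pearson's r over the 6 libraries was 0.954 (exact permutation p = 0.00694, adjusted p = 0.208) and Spearman's rho was 1 (exact permutation p = 0.00278, adjusted p = 0.125). It was 0.813 without WT replicate 1 and KO replicate 1, and 0.952 for deviations from the genotype means. For the same markers Hspa9 had r of 0.464, rho of 0.771 and r of 0.70 for the deviations, and Lonp1 had 0.612, 0.714 and 0.751. Hspe1, the lid of the same chaperonin, had r of -0.369. Hspd1 also ran opposite to the cell cycle markers. There r was -0.891 (exact permutation p = 0.0236, adjusted p = 0.411) and rho was -0.886 (exact permutation p = 0.0333, adjusted p = 0.75). Values as large were seen for Yme1l1 beside the hepatocyte markers (r = 0.952, rho = 0.943) and for Afg3l2 beside the macrophage markers (r = -0.93, rho = -1). The genes whose profile was most like that of Hspd1, among 11329 genes over 6 libraries, were Mamdc2 (r = 0.993), Vim (0.991), Tmem47 (0.991), Man1c1 (0.991) and Cmtm3 (0.990). Vim encodes vimentin, the intermediate filament of mesenchymal cells. These genes were picked as the highest r among 11329 over 6 libraries, with no test, so no cell type is read from them.

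**Figure D5:**
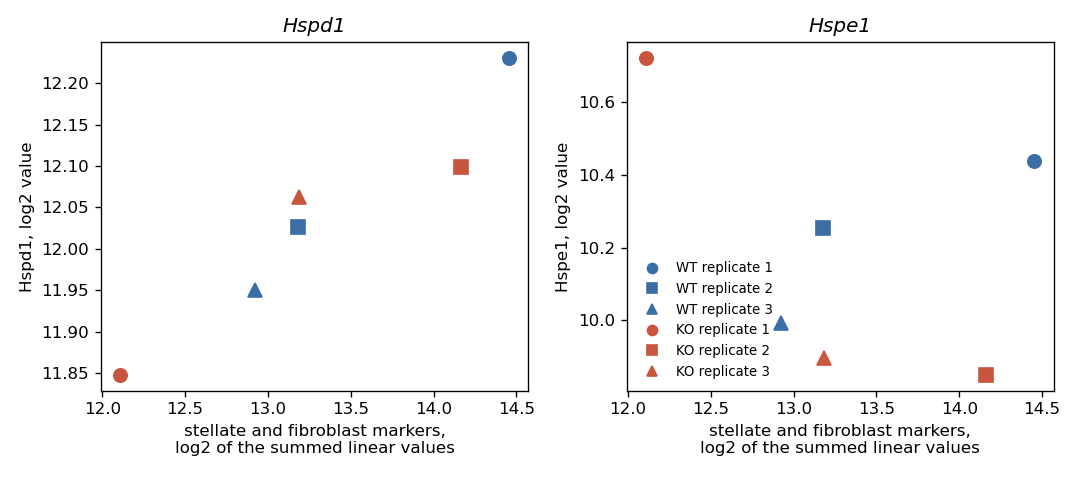
The log2 value of Hspd1 (left) and of Hspe1 (right) in each library against the log2 of the summed linear values of 8 stellate cell and fibroblast markers, WT in blue and KO in red; the axes do not start at 0. The points for Hspd1 climb from KO replicate 1 (11.85) to WT replicate 1 (12.23), whereas KO replicate 1 has the highest Hspe1 (10.72).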

How the data were processed

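RNA from 3 WT and 3 KO mouse liver tumors was used, grouped by the genotype labels. The deposited table holds log2 expression values made by the authors, by gene symbol. By the methods of the study, reads were trimmed, aligned with BWA to a genome named there Mm 8 and counted with featureCounts; the submitters' processing notes list Trimmomatic 0.36, STAR 2.5.1, Subread, DESeq2 and GRCm38. The log2 transform is not named in either source. The values run from -2.24 to 22.0, and counts cannot be recovered from them.

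The KO and WT libraries were set against each other with limma 3.58.1 under R 4.3.3 (lmFit, eBayes with trend, two-sided, Benjamini-Hochberg adjustment over 22677 genes whose mean lay above the lowest 25%, adjusted p under 0.05) and checked on simulated data. Single values also had exact permutation tests over 20 regroupings, and correlations over 720 pairings. A further 3 columns without a name were not used. The genes and all lists were chosen with earlier results of these data known. Genes named are the 10, Top1mt, the extremes of each list, 8 known partners and regulators, and the 5 genes most like the set's mean and Hspd1; Star, Dnaja1, Dnaja2, Hspb8 and Cryab were added after their values were seen. Alternatives were no trend, robust fitting, quantile normalization, median centring, other filters, a replicate block and each library left out. Gene models are GENCODE M21 (GRCm38) and promoter windows RefSeq (GRCm38.p6), 250 bases before to 50 after a start site.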

Additional observations from a re-analysis of the deposited data

How the results depend on the processing

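No alternative brought any of the 10 genes past an adjusted p of 0.05 by limma, and the smallest was 0.756. Of 130 log2 fold changes of these genes under 13 alternatives 121 kept their sign. Over all genes tested the count past the threshold was 0, with 4 when no filter was used and 0 to 1 with a library left out, where the 1 came without KO replicate 1. Counts at an unadjusted p under 0.05 ran from 590 to 1354. The cause of these changes was not tested.

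Signs turned in 4 genes. With a library left out, Hspd1 ran from -0.13 to 0.015, Hspe1 from -0.36 to 0.080, Clpp from -0.14 to 0.026 and Afg3l2 from -0.087 to 0.16, and Clpp was 0.0017 with libraries centred on their medians. The change of Hspd1 minus Hspe1 ran from -0.19 to 0.37, of Afg3l2 minus Yme1l1 from -0.13 to 0.040 and of Afg3l2 minus Spg7 from -0.032 to 0.36. Also with a library left out, the median of the other proteases ran from -0.083 to 0.017 and that of the protease substrates from -0.13 to 0.024. With libraries centred on their medians these were 0.051 and 0.0027, and that of all genes tested was 0.039. The number of the 10 genes whose genotypes did not overlap ran from 0 to 5.

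Samples with the same replicate number showed no strong common deviation (r = -0.123, -0.076 and 0.052). With 3 libraries a group these values cannot exclude that the numbers pair them. With the replicate number as a block 0 genes passed the threshold, 912 had an unadjusted p under 0.05, and no call changed.

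With 3 libraries a group and values of unknown depth and transform, small differences cannot be seen, and the median standard error of the 10 genes was 0.18 on the log2 scale.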

Other observations

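Proteins on which these proteases act, and genes that track the amount of mitochondria, were also described by list. Of 14 substrates 4 were higher and 10 lower in KO by sign, with a median log2 fold change of -0.05 and 0 past limma's adjusted threshold. Alas1, the first enzyme of heme synthesis and a substrate of LONP1 and CLPXP, read 12.55, 11.51 and 12.13 across WT replicates 1 to 3, against 10.86, 12.15 and 10.39 across KO replicates 1 to 3. KO replicates 1 and 3 were the lowest and KO replicate 2 lay within the WT range, and the log2 fold change was -0.93 (standard error 0.45; limma's adjusted p = 0.999). Pgam5 was the highest of the list at 0.25. Star, a cholesterol carrier degraded by LONP1 and named after its values were seen, read 5.89, 6.43 and 6.29 in WT against 5.29, 5.49 and 5.69 in KO. It lay wholly lower in KO, as did 4.33% of all genes tested. Its log2 fold change was -0.71 (standard error 0.28; limma's unadjusted p = 0.0333, adjusted p = 0.999).

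Of 11 references for mitochondrial content 4 were higher and 7 lower, with a median of -0.02 and 0 past the adjusted threshold by limma. Cs, citrate synthase, had the highest log2 fold change at 0.35. Esrra, a nuclear receptor that controls genes of oxidative metabolism, read 8.72, 8.85 and 8.77 across WT replicates 1 to 3, against 8.14, 8.50 and 8.33 across KO replicates 1 to 3. All KO libraries lay below all WT libraries, as in 4.33% of all genes tested. The log2 fold change was -0.46 (standard error 0.15; limma's unadjusted p = 0.0148, adjusted p = 0.999). Of the 8 subunits of the cytosolic chaperonin TRiC 5 were higher and 3 lower, from -0.09 for Cct8 to 0.10 for Cct4, with a median of 0.02.

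The genes whose values were most like the mean profile of the 10 chaperones and proteases over the 6 libraries were Caml (r = 0.997), Plpp1 (0.990), Rcn2 (0.980), Selenbp2 (0.975) and Fam3a (0.975), out of 11329 compared. They were picked as the highest r, with no test. In KO replicate 3 that mean profile was 0.23 and the median 0.10, with Clpx at 1.53, so a single gene weighs much in it. Clpx and Clpp had r of 0.462 over the 6 libraries (exact permutation p = 0.399, adjusted over the 6 pairs p = 0.797), with rho of -0.086. For deviations from the genotype means r was 0.732. It was -0.966 without WT replicate 2 and KO replicate 3, over few libraries and with no test, so no direction is read from it.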
